A study of Mus musculus with 2 samples.

Results

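The regulators of G protein signalling described here are 7 genes, Rgs1, Rgs2, Rgs3, Rgs10, Rgs14, Rgs16 and Rgs19, of the 32285 genes listed in a single-cell RNA-seq matrix of mouse splenic CD8+ T cells. They were chosen by name, with earlier results of the same cells known, so their levels are given as a description and no test is attached to them. The cells came from wild-type (WT) mice and were held for 30 h either rested or on plates coated with H-2Db, a class I MHC molecule, loaded with 1 of 2 peptides. The peptide called M9C was used at 20, 2 and 0.2 pmol and the peptide called L6F at 80 and 20 pmol. Read from M9C to L6F, the deposited peptides differed at 2 of 9 residues, F6L and M9C, with positions counted from 1 at the amino end. The peptide called M9C thus carries M at position 9 and the one called L6F carries L at position 6, so the names read as the reverse of the residues deposited. The labels do not say which T cell receptor the cells carried. Each condition was 1 culture, marked with its own hashtag antibody (a barcoded antibody that records the culture of origin). All 6 were sorted for live cells with propidium iodide, pooled and loaded into 1 droplet lane, so cells and not cultures were the only repeated unit. Nothing is therefore tested between conditions, and every interval below is a 95% interval that covers counting error only.

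RGS proteins speed up the hydrolysis of GTP by the alpha subunits of heterotrimeric G proteins and so shorten the signal from G protein coupled receptors. In lymphocytes these receptors include those for chemokines, sphingosine 1-phosphate, adenosine and prostaglandins, which steer migration and modulate activation. Rgs1 and Rgs16 are known as inducible brakes on chemokine receptor signalling in lymphocytes, and Rgs2 acts preferentially on the Gq class. Rgs3, Rgs10 and Rgs19 also act as GTPase-activating proteins, and Rgs14 is a scaffold that also binds Ras family proteins.

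Of 13439 barcodes, 10600 had a clear hashtag, 500 genes or more and no more than 10% of their UMIs (unique molecular identifiers, 1 per captured RNA molecule) from mitochondria. These were 755 rested cells, 1869, 1703 and 1589 cells at 20, 2 and 0.2 pmol M9C, and 2207 and 2477 cells at 80 and 20 pmol L6F. The submitters describe sorting 22000 cells, 4000 from each stimulated culture and 2000 rested. Rested cells were much shallower, with a median of 1056 UMIs against 6050 to 7114 in the stimulated cultures, and 52.3% of rested barcodes were left out against 1.43% to 3.71% elsewhere. Summed over cells, the rested culture held 918920 UMIs and the others 11376897 to 16014100, so 3 counts were worth 3.26 CPM (UMIs of a gene scaled to the same sum in each culture) in rested cells and 0.187 to 0.264 CPM elsewhere. The CD8 T cell markers Cd8a, Cd8b1, Cd3e, Cd3d, Cd3g and Trac all had UMIs in every culture, at least 96.4% of cells held a UMI of 1 or more of them, and Cd4 was at or near 0. Rested cells also carried more RNA of macrophage markers (150.2 CPM summed over 5 genes, nearly all Lyz2, with Adgre1 and C1qa at 0) than stimulated cells (2.67 to 26.2 CPM), and more globin RNA (erythroid list 158.9 CPM against 2.61 to 41.1). The gamma-delta T cell list, mostly Trdc and with Sox13 at 0 in rested cells, added up to 427.7 CPM there against 55.6 to 104.0 CPM in stimulated cultures.

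The promoter windows of Rgs2 and Rgs16 are shown because these were the members whose levels followed M9C dose and peptide most closely. Both genes and Rgs1 lie on mouse chromosome 1 in GRCm38 (GENCODE vM21), Rgs2 at chr1:143999338-144004161 and Rgs1 at chr1:144242296-144249242 on the minus strand, and Rgs16 at chr1:153740349-153745468 on the plus strand. The sequences are the 250 bases before the RefSeq start (GRCm38.p6), at chr1:144004150-144004399 on the minus strand for Rgs2 and chr1:153740103-153740352 on the plus strand for Rgs16. Capitals in the Rgs2 window mark the only match to the motifs searched there.
Rgs2: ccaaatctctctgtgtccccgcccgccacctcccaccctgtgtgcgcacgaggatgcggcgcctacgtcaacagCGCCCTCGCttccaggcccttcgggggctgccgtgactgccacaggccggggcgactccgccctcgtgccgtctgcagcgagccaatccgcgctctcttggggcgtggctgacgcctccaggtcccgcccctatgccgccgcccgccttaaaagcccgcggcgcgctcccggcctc
Rgs16: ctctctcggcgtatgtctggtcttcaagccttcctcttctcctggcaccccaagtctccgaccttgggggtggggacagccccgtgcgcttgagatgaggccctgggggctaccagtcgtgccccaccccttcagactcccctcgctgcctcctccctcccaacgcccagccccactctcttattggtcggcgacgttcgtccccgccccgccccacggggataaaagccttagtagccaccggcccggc
The match in Rgs2 is to the Egr element GCGNGGGCG on the opposite strand, its first base 176 bases before the start, a motif held by 4.70% of 32817 RefSeq promoter windows. The search covered only the 250 bases before the start, on either strand, in these windows and in all promoters. It found no match in either window to the AP-1 element TGANTCA (6.75% of windows) or the NFAT core GGAAA (55.6%). The cAMP response element TGACGTCA (1.55%), the NF-kB-like element GGGNNTTCC (4.97%) and the Klf element CCACACCC (3.19%) were also absent from both. Rgs16 also had no match to the Egr element. Each motif can overlap another, a match is a description and not a bound site, and a missing match says only that these letters are not in the window. The windows were rich in G and C (72.4% in Rgs2 and 66.4% in Rgs16). RefSeq windows were matched for 5 of the 7 members, and Rgs1 and Rgs14 were not matched. The Egr element was not particular to Rgs2. A window of Rgs19 also held it, its first base 98 bases before the start, while Rgs3 and Rgs10 did not. Windows of Rgs19 also held NFAT core and NF-kB-like matches, and a window of Rgs3 held an NFAT core.

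Rgs16 was not seen in rested cells at this depth and was graded over all 3 M9C doses. It had 0 UMIs in 755 rested cells, which allows up to 0.397% of cells with a UMI by the limit of 3 counts (exact binomial upper limit 0.487%), and 30.5, 22.8 and 13.4 CPM at 20, 2 and 0.2 pmol M9C. With L6F it stood at 6.82 CPM at 80 pmol and 7.43 CPM at 20 pmol. The Poisson intervals of the M9C cultures (27.6 to 33.7, 20.2 to 25.7 and 11.4 to 15.8 CPM) overlapped neither each other nor those of the L6F cultures (5.51 to 8.34 and 6.16 to 8.89 CPM). The L6F cultures overlapped each other. Against a floor of 3 counts in rested cells, Rgs16 was at least 9.34-fold higher at 20 pmol M9C, at least 6.98-fold at 2 pmol and at least 4.12-fold at 0.2 pmol, and at least 2.09-fold and 2.28-fold higher at 80 and 20 pmol L6F. The lower ends of the 95% counting intervals of these ratios were 7.56, 5.64, 3.31, 1.67 and 1.82. In every cell thinned to 1000 UMIs, Rgs16 was found in 0 of 464 rested cells, which allows 0.647% by the same limit (0.792% exact), and in 3.12%, 1.83% and 1.20% of M9C cells. At this depth the L6F shares of 0.500% and 0.567% fell below what 0 rested cells allow, so a difference of L6F from rested was not detectable.

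Rgs2 followed M9C dose in a single step. Its level was 7.62 CPM in rested cells, from 7 UMIs, 31.3, 30.9 and 16.3 CPM at 20, 2 and 0.2 pmol M9C, and 6.46 and 8.18 CPM at 80 and 20 pmol L6F. The cultures at 20 and 2 pmol M9C were alike, 0.2 pmol lay below both, and the L6F and rested cultures could not be ordered. Rgs2 was 4.11-fold higher than rested at 20 pmol M9C (interval 1.97 to 10.3), 4.05-fold at 2 pmol and 2.15-fold at 0.2 pmol (1.02 to 5.41), whereas the ratio was 0.847 at 80 pmol L6F and 1.07 at 20 pmol. Of the 7 rested UMIs, 4 lay in the 136 rested cells with at least 2 UMIs of other cell types' markers. Without such cells in any culture the rested level was 4.26 CPM, from 3 UMIs, and the ratios became 7.96 (2.69 to 38.9), 7.65 and 3.96 at 20, 2 and 0.2 pmol M9C. The L6F ratios became 1.94 (0.620 to 9.76) at 80 pmol, which turned the direction there, and 2.28 (0.744 to 11.4) at 20 pmol, both with intervals that include equality.

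Rgs1 was the most abundant of the genes that were higher under stimulation. It stood at 18.5 CPM in rested cells, 105.1, 104.9 and 89.0 CPM at 20, 2 and 0.2 pmol M9C, and 38.8 and 50.6 CPM at 80 and 20 pmol L6F. Its M9C cultures lay close together and above both L6F cultures, which in turn lay above rested cells, with no overlap between these 3 sets. Against rested cells Rgs1 was 5.68-fold higher at 20 pmol M9C (3.54 to 9.78), 5.67-fold at 2 pmol and 4.81-fold at 0.2 pmol. It was 2.10-fold higher at 80 pmol L6F (1.30 to 3.63) and 2.73-fold at 20 pmol (1.70 to 4.72). L6F gave less Rgs1 at the higher dose, 1.30-fold lower at 80 than at 20 pmol (1.17 to 1.46).

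**Figure D1:**
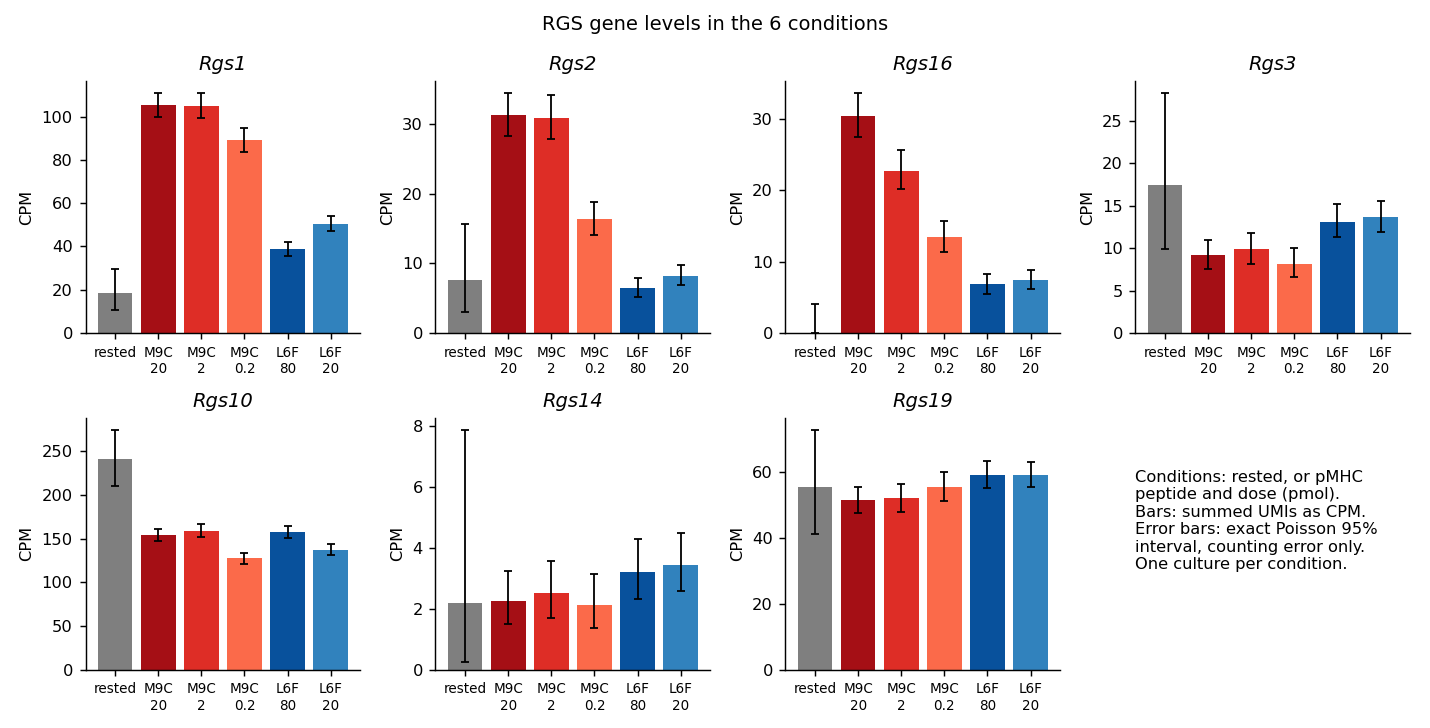
Level of each of the 7 RGS genes in CPM (y axes, each starting at 0 with its own scale) in the 6 conditions, with exact Poisson 95% intervals; each bar is 1 culture. Rgs1, Rgs2 and Rgs16 were highest at 20 pmol M9C, at 105.1, 31.3 and 30.5 CPM, while Rgs10 was highest in rested cells at 240.5 CPM and Rgs19 stayed between 51.6 and 59.3 CPM.

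Rgs10 was the most abundant member and was highest in rested cells. Its level was 240.5 CPM there, 153.9, 159.2 and 127.2 CPM at 20, 2 and 0.2 pmol M9C and 157.7 and 137.3 CPM at 80 and 20 pmol L6F. Rested cells stood apart from all 5 stimulated cultures in CPM. Rgs10 was 1.56-fold lower at 20 pmol M9C than in rested cells (1.35 to 1.80) and 1.89-fold lower at 0.2 pmol (1.63 to 2.18), but in UMIs per cell the direction turned, with Rgs10 higher by 1.86 on the log2 scale at 20 pmol M9C. On that scale the median of all genes shifted by 2.43 to 2.65 (log2) against rested cells, and Rgs10 lay below that shift. The gene at chr7:128373621-128418758 (minus strand) overlaps Gm15503 on the same strand, which had 152 UMIs, so a few reads could have gone to either.

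Rgs3 was also lower in CPM under M9C. It stood at 17.4 CPM in rested cells, from 16 UMIs, 9.14, 9.85 and 8.17 CPM at 20, 2 and 0.2 pmol M9C and 13.1 and 13.6 CPM at 80 and 20 pmol L6F. By Poisson intervals the 3 M9C cultures overlapped each other and rested cells (9.95 to 28.3 CPM). The L6F cultures also overlapped each other and rested cells, and 2 pmol M9C (8.15 to 11.8 CPM) overlapped 80 pmol L6F (11.3 to 15.2 CPM). Rgs3 was 2.13-fold lower at 0.2 pmol M9C than in rested cells (1.17 to 3.64) and 1.91-fold lower at 20 pmol (1.05 to 3.23), while at 2 pmol the 1.77-fold lower level had an interval that includes equality (0.979 to 2.99). In CPM it was thus lower, and in UMIs per cell it was higher, by 1.47 at 0.2 pmol and 1.58 at 20 pmol on the log2 scale, again below the shift of all genes. With hashtags called by HTODemux, a cluster-based caller, the interval included equality at all 3 M9C doses.

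Rgs19 hardly moved: 55.5 CPM in rested cells, 51.6, 52.1 and 55.6 CPM at 20, 2 and 0.2 pmol M9C, and 59.1 and 59.3 CPM at 80 and 20 pmol L6F. Every neighbouring pair of cultures in that order overlapped, and the ratio of 20 pmol M9C to rested was 0.930 (0.699 to 1.26). Rgs14 was at most 3.43 CPM (20 pmol L6F) and had 2 UMIs in rested cells, too few to compare with any culture. No other member of the family reached 10 CPM: of 17 further RGS genes 9 had no UMI in any cell used, and the highest stimulated level was 1.31 CPM, for Rgs12.

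A member was counted as measured in a comparison at 10 CPM or more in either culture, and as higher or lower where it differed by at least 2-fold with an interval that excluded equality. At 20 pmol M9C against rested, Rgs1, Rgs2 and Rgs16 were higher and none was lower of 6 measured, where 16.9% of the 7779 genes measured were higher and 16% lower. In UMIs per cell all 6 were higher, by 1.58 (Rgs3) to 5.73 (Rgs16) on the log2 scale, against a shift of 2.61 in the median gene. The counts were the same at 2 pmol (16.7% and 16.4% of all genes). At 0.2 pmol the same 3 members were higher and Rgs3 was lower (16.5% and 16.3%), but the call of Rgs2, which rests on 7 rested UMIs, was lost under several other cell filters and after thinning. Under L6F, Rgs1 was the member counted as higher of 4 measured, at 80 pmol (13.5% of all genes higher, 13.3% lower) and at 20 pmol (14.3% and 14%), and none was lower. The call at 80 pmol, at 2.10-fold, was lost with at least 800 genes per cell, at 50 CPM and in cells with a CD8 or CD3 UMI. The median log2 ratio of the measured members at 20 pmol M9C was 0.97, against 0.10 over all genes. Rgs2 and Rgs16 were measured there only through the M9C culture, Rgs16 at its floor, and Rgs3 only through the rested culture. This median and the count of higher members thus depend on the 10 CPM limit. Under L6F, where Rgs2 and Rgs16 were not measured, the median was -0.16 at 80 pmol and -0.13 at 20 pmol (0.07 and 0.08 over all genes). At a 1.5-fold limit, the same 3 members were higher at 20, 2 and 0.2 pmol M9C (27.3%, 27% and 26.8% of all genes), Rgs10 was lower at each dose, and Rgs3 was lower at 20 and 0.2 pmol (22.9%, 23.7% and 23.7%). Under L6F at that limit Rgs1 was higher and Rgs10 lower at 80 pmol (24% and 20.9%) and at 20 pmol (25% and 21.8%). Comparisons against rested share the rested cells and so are not independent of each other.

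Across M9C doses Rgs16 and Rgs2 changed more than Rgs1. From 2 to 20 pmol, Rgs1 and Rgs2 had ratios of 1.00 (0.928 to 1.08) and 1.01 (0.877 to 1.17), while Rgs16 was 1.34-fold higher (1.14 to 1.57). From 0.2 to 2 pmol, Rgs2 was 1.89-fold higher (1.58 to 2.26), Rgs16 1.69-fold (1.38 to 2.08) and Rgs1 1.18-fold (1.08 to 1.28). Over the whole range Rgs16 was 2.27-fold higher at 20 than at 0.2 pmol (1.88 to 2.75), Rgs2 1.91-fold (1.60 to 2.29) and Rgs1 1.18-fold. The intervals of Rgs16 and Rgs2 overlapped each other in both steps and over the whole range, and in the lower step and the whole range neither overlapped that of Rgs1. No member passed 2-fold between 20 and 2 pmol (0.0288% of all genes higher, 0.0432% lower) or between 2 and 0.2 pmol (0.115% and 0.0719%), and of 5 measured Rgs16 alone was higher at 20 than at 0.2 pmol (0.272% higher, 0.143% lower). No member passed 2-fold between the L6F doses, nor did any gene (0% in either direction). At 1.5-fold, Rgs2 and Rgs16 were higher at 2 than at 0.2 pmol M9C (0.302% of all genes higher, 0.316% lower) and at 20 than at 0.2 pmol (0.832% and 0.488%). No member passed 1.5-fold between 20 and 2 pmol M9C (0.23% and 0.0864%) or between the L6F doses (0.0863% and 0.0575%).

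At the matched dose of 20 pmol, M9C and L6F differed most, among the members, in the same 3 genes. Rgs16 was 4.10-fold higher with M9C (3.34 to 5.08), Rgs2 3.82-fold (3.13 to 4.69) and Rgs1 2.08-fold (1.90 to 2.27), where 0.884% of the 7014 genes measured were 2-fold higher and 0.756% lower. The other members differed by less: Rgs3 was 1.49-fold lower with M9C (1.19 to 1.88), Rgs19 1.15-fold lower (1.04 to 1.27) and Rgs10 1.12-fold higher (1.05 to 1.19). Rgs14, not counted as measured, had a ratio of 0.654 (0.402 to 1.04). The summed gamma-delta T and NK cell marker lists also differed between these cultures, at 59.5 and 17.0 CPM with M9C against 96.9 and 50.6 CPM with L6F. The gamma-delta sum was mostly Trdc. The NK sum was nearly all Eomes (16.1 CPM with M9C and 48.96 CPM with L6F), with Ncr1 and Klrb1c at or near 0. These sums therefore do not show a difference in NK cell content. Rgs1, Rgs2 and Rgs16 were still counted as higher without cells holding other cell types' markers. The median over the 6 measured members was 0.61 on the log2 scale, against 0.02 over all genes. It depends on the 10 CPM limit. With L6F, Rgs2 was at 8.18 and Rgs16 at 7.43 CPM, so both were measured only through the M9C culture. Rgs3 was measured only through the L6F culture. In the order of levels, even 0.2 pmol M9C lay above the nearest L6F culture (20 pmol) in Rgs1 (1.76-fold), Rgs2 (2.00-fold) and Rgs16 (1.81-fold), though there the dose differed as well as the peptide.

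The share of cells with a UMI followed the levels at matched depth. With every stimulated cell thinned to 3000 UMIs, Rgs16 was found in 7.42%, 6.26% and 3.27% of cells at 20, 2 and 0.2 pmol M9C and in 1.71% and 2.13% at 80 and 20 pmol L6F. Before thinning these shares were 15.4%, 12.6%, 7.93%, 3.72% and 4.00%. Rgs2 was found in 9.08%, 8.52% and 4.07% of thinned M9C cells and in 2.06% and 2.35% of L6F cells. For Rgs1 the shares were 24.7%, 24.5% and 23.0% with M9C and 10.7% and 13.6% with L6F. Rgs10 differed less between the 5 cultures, at 31.0% to 36.4% of cells, as did Rgs19 at 13.3% to 16.8%. No cell type that should lack these genes was available in the pool as a measure of free RNA, and its part in these shares was not tested.

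**Figure D2:**
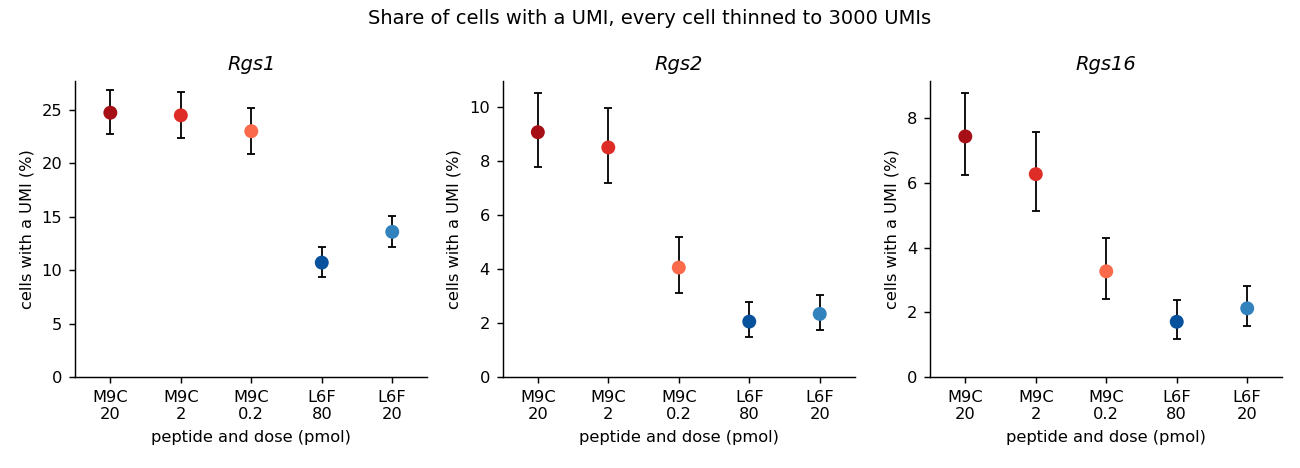
Percent of cells with at least 1 UMI of Rgs1, Rgs2 or Rgs16 (y axes from 0) in the 5 stimulated cultures, each cell thinned to 3000 UMIs, with exact binomial 95% intervals. Rgs16 falls from 7.42% to 3.27% of cells over the M9C doses, Rgs1 stays between 23.0% and 24.7%, and both L6F cultures lie lower for all 3 genes.

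Within a culture several members were held more unevenly than genes of like mean. At 20 pmol M9C the variance of UMIs over their mean was 1.25 for Rgs16, 1.18 for Rgs2 and 1.18 for Rgs1, where genes of like mean had medians of 1.01, 1.01 and 1.02. For Rgs10 it was 1.12 (median of like genes 1.03), for Rgs19 1.05 and for Rgs3 1.01. Over the 5 cultures it was 1.11 to 1.21 for Rgs1, 1.05 to 1.25 for Rgs16, 1.03 to 1.21 for Rgs2, 1.05 to 1.15 for Rgs10 and 0.992 to 1.07 for Rgs19. The ranges overlap, and at 0.2 pmol M9C Rgs16 (1.05) lay below Rgs19 (1.07). At least 1 of Rgs1, Rgs2 and Rgs16 was seen in 36.3% of thinned cells at 20 pmol M9C, 34.5% at 2 pmol and 27.7% at 0.2 pmol, and in 13.6% and 16.7% at 80 and 20 pmol L6F. All 3 were seen together in 5, 4 and 1 M9C cells and in 0 L6F cells.

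Cells with Ccl4, a chemokine gene of activated CD8 T cells, more often held Rgs16. At 20 pmol M9C, Rgs16 was found in 9.79% of 919 cells with a Ccl4 UMI (7.95% to 11.9%) and 4.81% of 832 cells without (3.46% to 6.49%). At 20 pmol L6F the shares were 5.52% and 1.27%, and at 80 pmol L6F 5.86% and 1.00%. In all 5 stimulated cultures the Rgs16 share was higher in Ccl4-positive cells, by 2.04-fold to 5.85-fold, with intervals that did not overlap. Rgs1 was likewise higher in 5 of 5 cultures with intervals apart, by 1.28-fold to 2.40-fold, for example 23.0% against 11.2% at 20 pmol L6F. Rgs2 was higher in 5 of 5 by 1.49-fold to 1.98-fold, but its intervals overlapped in each. Cells are not replicates of a culture, and cells with a Ccl4 UMI may differ in other ways, which was not tested.

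**Figure D3:**
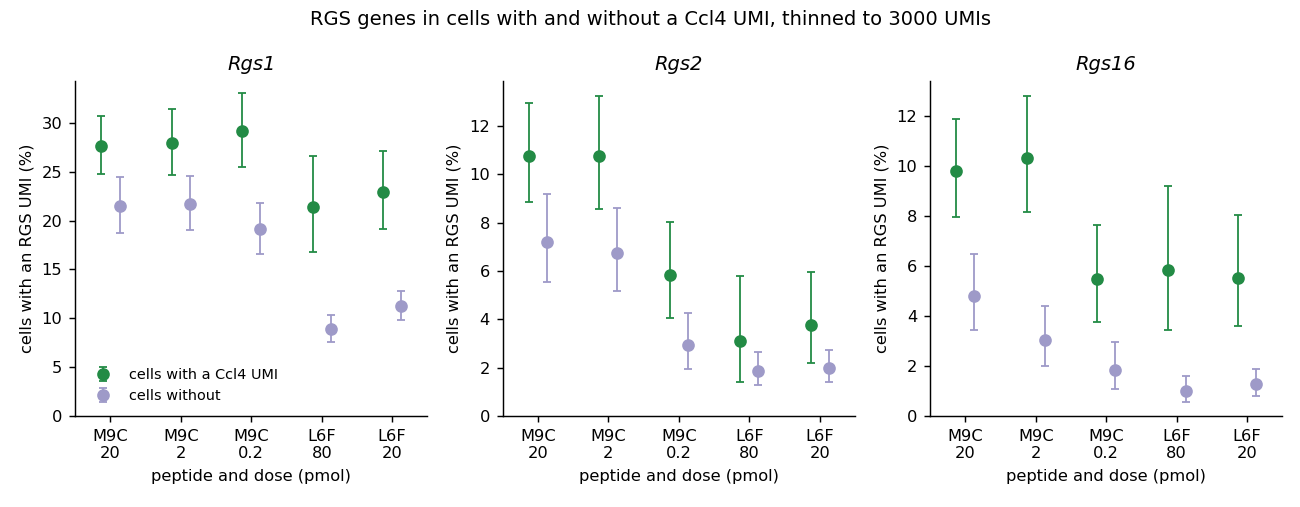
Percent of cells with a UMI of Rgs1, Rgs2 or Rgs16 (y axes from 0) among cells with (green) and without (violet) a Ccl4 UMI in each stimulated culture, all thinned to 3000 UMIs, with exact binomial 95% intervals. Rgs16 is 5.52% against 1.27% at 20 pmol L6F, and the intervals stay apart in 5 of 5 cultures for Rgs16 and Rgs1.

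Splits by 3 other genes separated the members little. For Il2ra (the interleukin-2 receptor alpha chain), Mki67 (a proliferation marker) and Gzmb (granzyme B), the intervals for Rgs1, Rgs2 and Rgs16 overlapped in each of the 5 cultures. Rgs1 was found more often in Rgs16-positive than Rgs16-negative cells in 5 of 5 cultures, with intervals apart in 2. Among these was 0.2 pmol M9C, at 44.9% of 49 cells against 22.3%. At 20 and 2 pmol M9C, with more Rgs16-positive cells (130 and 100), the shares were close. They were 26.2% against 24.6% and 27.0% against 24.3%, with intervals that overlapped. Rgs1 was also found more often in Rgs2-positive cells in 4 of 5 cultures, with intervals apart in 2. These were 80 pmol L6F (24.4% of 41 cells against 10.4%) and 20 pmol L6F (26.4% of 53 cells against 13.3%). Shares of Rgs2 split by Rgs1 had intervals apart in 0 cultures. Rgs16 was found more often in Rgs2-positive cells in 3 of 5 cultures, with intervals apart in 0.

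The genes most like each member over the 6 conditions were ranked by the root mean square difference of their centred log2(CPM + 1) profiles among 5852 genes at 20 CPM or more in some culture. Rgs16 was nearest to Lipg (0.20), an endothelial-type lipase, then Ccl4 (0.25) and Pdcd1lg2 (0.27), which encodes the PD-1 ligand PD-L2. Rgs1 was nearest to Bhlhe40 (0.12), a transcription repressor, Slamf1 and Rilpl2. Rgs2 was nearest to Serpinb9 (0.26), a granzyme B inhibitor, then Cd5 and Plek. Over the 5 stimulated cultures alone, the gene nearest to Rgs16 was Ifng, which encodes interferon gamma (0.09), and the gene nearest to Rgs2 was Rgs16 (0.17). Rgs3 was nearest to Gimap4, Mmp16 and Bcl2l11, Rgs10 to Hint3, Gm2a and Gnptg, Rgs19 to Trim35, Coa3 and Washc1, and Rgs14, at its low level, to Idh2, Grhpr and Cdca7l. All values share the same cultures and depth, and likeness is given as a description.

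The other genes of the G protein pathway were counted against the same shares of all genes, 16.9% higher and 16% lower at 20 pmol M9C against rested. By that measure the receptors and the effectors had more lower members, while the subunits and the higher receptors were near the share of all genes. Of 7 measured alpha subunits at 20 pmol M9C against rested, Gna15, a Gq-class subunit, was 22.9-fold lower (33.7 against 1.47 CPM) and none was higher, with a median log2 ratio of 0.02. Of 6 measured beta and gamma subunits, Gng2 was 2.94-fold higher (2.04 to 4.41) and none was lower. Of 17 measured receptors, 3 were higher and 9 lower, and their median log2 ratio was -1.14, which in UMIs per cell turned to 1.37 with 3 receptors still lower (S1pr1, Ccr9 and Cxcr6). The higher ones were the adenosine receptor Adora2a, the prostaglandin receptor Ptger4 and Gpr174, a lysophosphatidylserine receptor. Adora2a was at 1.09 CPM in rested cells and 11.4 CPM at 20 pmol M9C, 10.5-fold higher (interval 1.85 to 416). Its rested level lay below the 3.26 CPM that 3 counts are worth. Ptger4 was at 6.53 and 27.6 CPM, 4.23-fold higher (1.93 to 11.6). Gpr174 was at 7.62 and 21.1 CPM, 2.76-fold higher (1.32 to 6.94). All 3 rested levels come from few UMIs. The sphingosine 1-phosphate receptor S1pr1, which directs exit from lymphoid tissue, was 74.7-fold lower (45.5 to 129.2), Ccr9 30.5-fold and Cxcr6 10.2-fold lower. Among 18 effectors, kinases and arrestins, 8 were lower and none was higher (median -0.85, turning to 1.66 in UMIs per cell with all 18 higher), led by Prkacb (4.38-fold lower), Plcb2 (4.29-fold) and Pik3r5 (3.80-fold). Between 20 pmol M9C and 20 pmol L6F, no measured gene of these 4 lists passed 2-fold, where 0.884% and 0.756% of all genes did. At 1.5-fold, Cxcr3 (1.93-fold), Gng2 (1.86-fold), S1pr4 (1.67-fold) and Pik3r5 (1.54-fold) were lower with M9C and none was higher, where 2.27% of all genes were 1.5-fold higher and 2.57% lower.

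**Figure D4:**
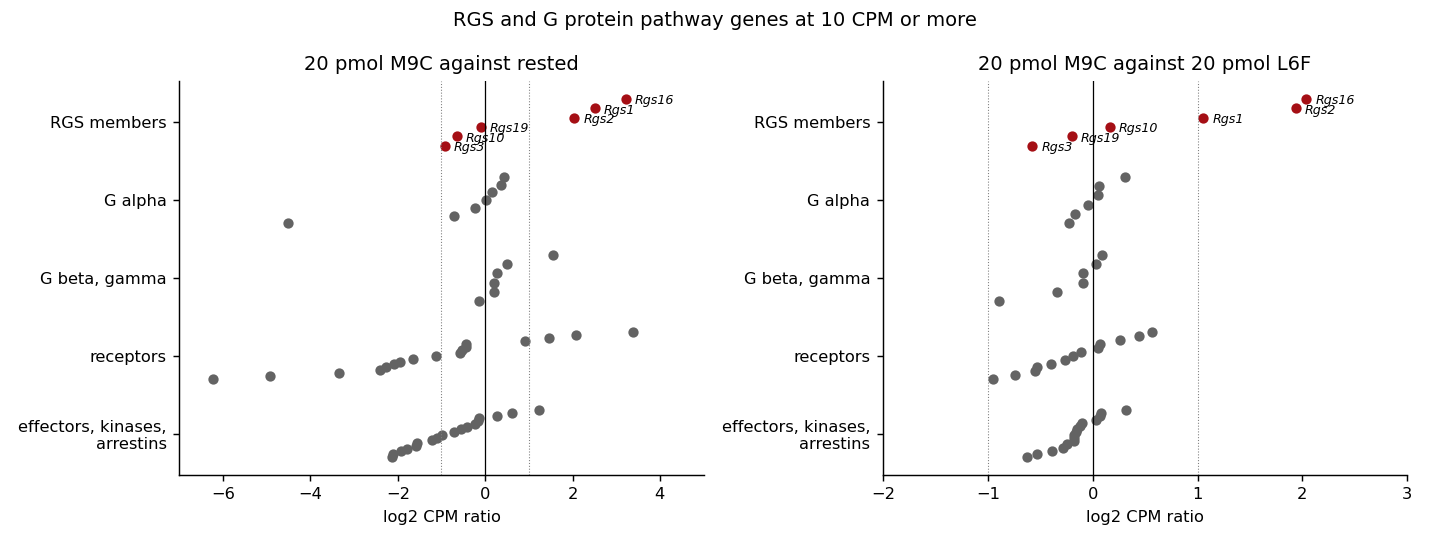
Log2 CPM ratio (x axes) of each measured RGS member (red, named) and G protein pathway gene (grey) for 20 pmol M9C against rested cells (left) and against 20 pmol L6F (right), with dotted lines at 2-fold; each point is 1 gene, sorted by ratio within its row, and Rgs16 on the left is a lower bound. Between the peptides, Rgs16, Rgs2 and Rgs1 are the points past the right dotted line.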

How the data were processed

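Gene and hashtag counts are whole UMI counts as deposited by the authors, which per the submitters' processing notes used bcl2fastq, Cell Ranger 6.0.1 and the GRCm38 (mm10) build; the annotation counted on is not given in the sources used here. A barcode was given a condition where its top hashtag had 20 counts or more and at least 80% of its hashtag counts; the other 1768 of 13439 (13.2%), which hold the multiplets a hashtag can show, were left out. No other doublet caller was run, and 18.2% of chance cell pairs would share a condition. Counts of cells with 500 genes or more and at most 10% mitochondrial UMIs were summed per condition and scaled to CPM. Ratios have exact Clopper-Pearson intervals, levels exact Poisson and shares exact binomial intervals, at 95%. A count of 0 was set at 3 counts of the condition's total. Thinned values draw 1000 or 3000 UMIs per cell and leave shallower cells out (291 of 755 rested cells at 1000, and 89 to 220 cells per stimulated culture at 3000). There were 10 comparisons: each stimulus against rested, dose against dose for either peptide, and the peptides against each other at 20 pmol.

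The members, gene lists and motifs were chosen with earlier results of these data known. All 7 members are named. Of other lists, the 3 highest and 3 lowest genes past 2-fold against rested or 1.5-fold between peptides are named, and for each member the 3 genes of nearest profile. The method was tested on simulated counts: of 200 genes changed 3-fold, 98% were recovered for 20 pmol M9C against rested (7113 genes) and 100% for M9C against L6F (6916 genes). The counts were Poisson draws at the summed totals of the cultures, without variation between cultures or cells. The simulation thus covers counting error only, and it does not cover calls near 2-fold. Python 3.11.15, numpy 2.4.6, scipy 1.17.1, R 4.3.3 and Seurat 5.3.0 (HTODemux at quantile 0.99, as an alternative) were used.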

Additional observations from a re-analysis of the deposited data

Results flagged for a closer look

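In the 1565 barcodes that had no clear hashtag but passed the cell filters, which no comparison used, 3 members stood above the upper bound of rested cells. Rgs1 was at 76.9 CPM (72.7 to 81.2) against an upper bound of 29.6, Rgs2 at 19.2 CPM (17.1 to 21.4) against 15.7, and Rgs16 at 13.2 CPM (11.5 to 15.1) against 4.01. All 3 levels lay within the range of the stimulated cultures (38.8 to 105.1, 6.46 to 31.3 and 6.82 to 30.5 CPM). These 1565 barcodes held 16468269 UMIs, against 918920 in 755 rested cells and 16014100 in 2477 cells at 20 pmol L6F. They have no condition.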

How the results depend on the processing

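No paired analysis was possible because each condition was 1 culture. Of 840 single-member ratios recomputed under 12 alternatives, 774 stayed within their main interval, 64 moved (25 in UMIs per cell and 24 after thinning) and 2 that had been called higher or lower turned. Counting uncalled ones too, 75 changed sign, 16 of them in UMIs per cell (among them Rgs10 and Rgs3 in all 5 comparisons with rested) and 15 after thinning. The 1.5-fold limit, the 50 CPM limit and the run without a filter on low values change only the calls. Their 70 ratios each are the main ratios, so they stayed by construction and are part of the 774. Rgs16 at 0.2 pmol M9C against rested became -0.15 (log2) with at least 800 genes per cell, by construction, since 78 rested cells remained and 3 counts then weigh more. Rgs3 in the same comparison became 1.47 in UMIs per cell. The member counts against rested depended on 755 shallow cells. The single lower member at 0.2 pmol became 0 with HTODemux, with median-of-ratios size factors, after thinning to 1000 UMIs, with 800 genes, in UMIs per cell and at 50 CPM, and 2 with no gene minimum. The 3 higher members at 0.2 pmol became 1 with 800 genes and 1 after thinning, and Rgs2 alone dropped out with no gene minimum, in cells with a CD8 or CD3 UMI and with cells over 3 times the median depth left out. In UMIs per cell, 6, 6 and 6 were higher under M9C and 4 and 4 under L6F. At 50 CPM, 1, 1 and 1 were higher under M9C, 0 at 80 pmol L6F, 0 for 20 against 0.2 pmol M9C and 1 for M9C against L6F. The higher member at 80 pmol L6F was also lost (0) with 800 genes and in cells with a CD8 or CD3 UMI. With no filter on low values, 2 were higher at 80 and 2 at 20 pmol L6F. At a 1.5-fold limit, 2, 1 and 2 were lower at 20, 2 and 0.2 pmol M9C and 1 and 1 under L6F, and 2 were higher for 2 against 0.2 pmol and 2 for 20 against 0.2 pmol. Without cells holding other cell types' markers, 1 was lower at 20 pmol M9C against rested and 2 were higher for 20 against 0.2 pmol. M9C against L6F at 20 pmol had the same 3 members (Rgs1, Rgs2 and Rgs16) under 10 of the 12 alternatives, the exceptions being 50 CPM (Rgs1 alone) and thinning to 1000 UMIs, where Rgs1 fell just short of 2-fold (log2 ratio 0.98). Where no cause is given, it was not tested.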
